A study of Homo sapiens with 5 samples.

Results

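The Argonaute and small RNA silencing genes described here are AGO1, AGO2, AGO3, AGO4, DICER1, TARBP2, PRKRA, TNRC6A, TNRC6B and TNRC6C. They were chosen as a pathway and matched by symbol, with the older EIF2C symbols of the Argonaute genes allowed, at a time when earlier results of these data were known. All 10 were found among the 26364 genes listed. In IMR-90 fibroblasts with NSD2 knocked down for 24 hr, all 10 mRNAs were present and none passed the test for a change. AGO1 had the largest rise, to 128% of the control mean, with adjusted p = 0.498 in limma. In 7 of the 10, AGO2 and DICER1 among them, the log2 range between the NSD2 siRNAs was larger than the difference between the groups. The share of all tested genes with this property was not computed, so the count does not set the silencing genes apart. The median log2 range between the NSD2 siRNAs was 0.49 over the 10 genes and 0.39 over all tested genes.

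Small RNA silencing starts with short double-stranded RNA. DICER1, an RNase III enzyme, cuts microRNA (miRNA) precursors with the help of the double-stranded RNA-binding proteins TARBP2 and PRKRA. An Argonaute protein keeps 1 strand as a guide and pairs it with target mRNAs. All 4 Argonautes bind miRNAs, and AGO2 is the principal one that cuts a fully matched target. The GW182 proteins TNRC6A, TNRC6B and TNRC6C bind Argonaute and bring in the enzymes that shorten the poly(A) tail. Transfected siRNAs are loaded into the same Argonaute proteins as miRNAs.

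IMR-90, a line of normal fibroblasts from human lung, was used to see which genes respond to loss of NSD2, a methyltransferase of histone H3. There were 2 libraries of Ctr-KD cells, which received a control siRNA, and 3 of NSD2-KD cells, all from growing cells in DMEM/F12 with 10% serum and all collected 24 hr after transfection. Each NSD2-KD library received a different siRNA, named NSD2-1, NSD2-2 or NSD2-3, so siRNA, library and replicate cannot be told apart within NSD2-KD cells. Every library came from transfected cells, and cells without siRNA were not analysed here. All libraries are described as biological replicates, and all came from the same line.

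Libraries held between 2473691 and 2845063 reads on genes, and 3 reads were worth 2.76 to 3.28 normalized counts. The Ctr-KD libraries differed by little more than sampling noise (a chi-square of 1.05 per degree of freedom, against 3.87 to 5.29 for every other pair), and they were kept as 2 replicates. NSD2, listed as WHSC1, measured 463 and 443 normalized counts in Ctr-KD cells and 90.2, 81.9 and 87.9 in NSD2-KD cells. Its log2 difference was -2.37 (adjusted p = 0.000464 from limma), and without Ctr-KD replicate 1 or 2 the adjusted p was 0.0927 or 0.0758. All 12 fibroblast markers had reads. Their summed level lay between 203357 and 229159 normalized counts per library, with no called gene among the 11 tested. Of the epithelial markers 3 of 7 had a read, with sums of 9.53 to 26.2, and of the endothelial markers 3 of 5, with sums of 3.81 to 6.55. Of the leukocyte markers, CD68, which fibroblasts can also express, gave 60.5 to 103, and PTPRC, CD3E and AIF1 were at 0 in every library.

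A normalized count here is the number of reads on a gene divided by the size factor of its library. Differences are of log2(normalized count + 1), NSD2-KD minus Ctr-KD, from limma with a mean-variance trend. All 10 genes were among the 11313 tested, those whose normalized count averaged 10 or more over the libraries, and p-values were adjusted over all of these. An adjusted p under 0.05 counted as a call. In all, 10 genes were called, or 0.0884% of those tested, and 0 of the 10 silencing genes. At an unadjusted p under 0.05, limma gave 1 of the 10, AGO1, against 9.18% of all tested genes. The groups did not overlap for 4 of the 10, with 3 higher and 1 lower in NSD2-KD cells, against 27.7% of all tested genes. The log2 difference was above 0 for 4 and below 0 for 6, where 48.5% of tested genes lay above 0. The median of the 10 differences was -0.10, and that of all tested genes was -0.0089. These shares come from 10 genes, so that 1 gene moves each of them by 10 percentage points. With edgeR on the reads, 0 of the 10 were called, where 16 of all genes were (0.141%), and with DESeq2 0 of 10, where 56 of 10062 genes were (0.557%). At an unadjusted p under 0.05, edgeR gave 1 of the 10 and DESeq2 gave 0. In bulk libraries, fewer cells with a transcript and less transcript per cell cannot be told apart.

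**Figure D1:**
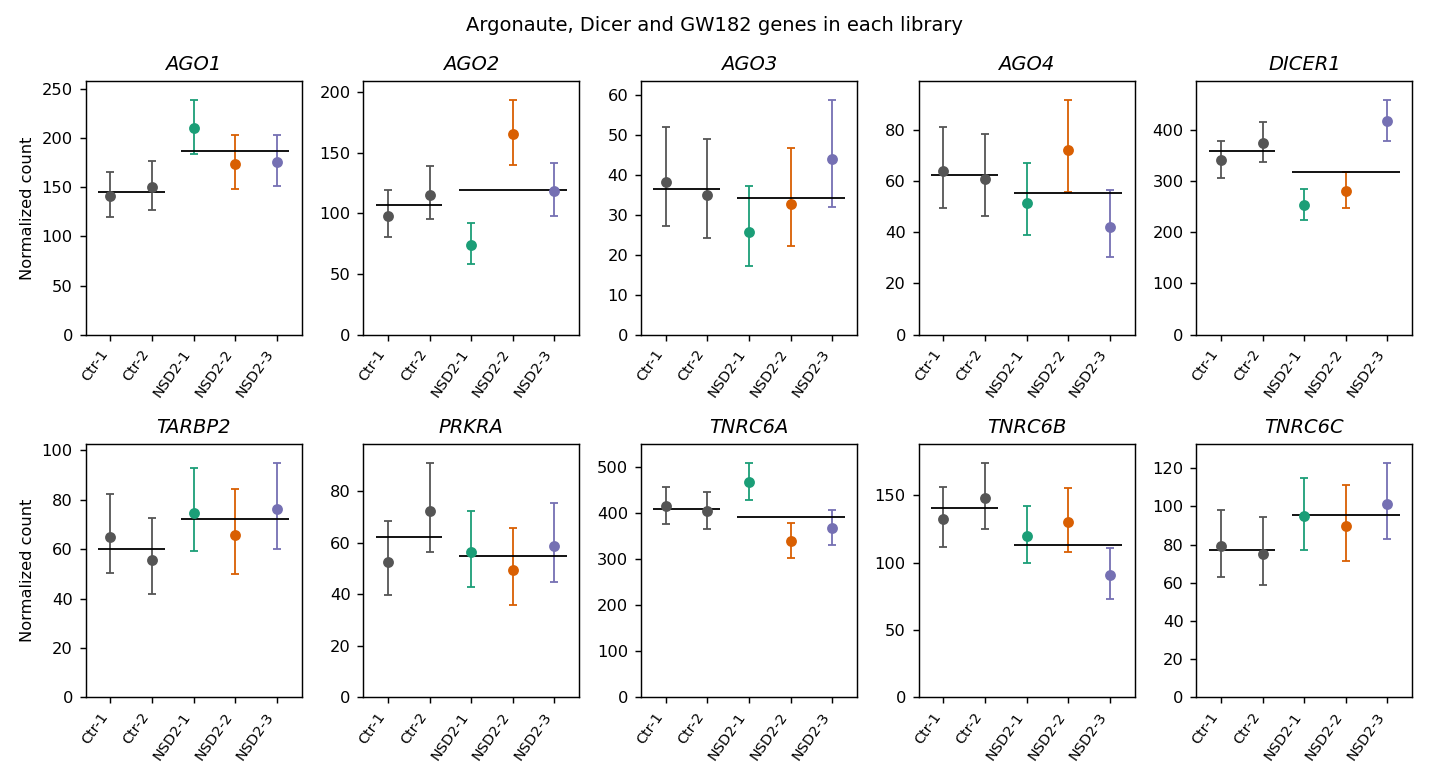
Normalized counts (vertical axes, each starting at 0) of the 10 silencing genes in each of the 5 libraries (horizontal axes). Points are single libraries, vertical bars are exact 95% Poisson counting intervals and horizontal lines are group means. The NSD2-KD points of AGO2 and DICER1 spread over more than the gap between the group means.

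Of the Argonaute genes, AGO1, AGO3 and AGO4 lie side by side on the plus strand of chromosome 1 (GRCh37). AGO4 spans chr1:36273617-36323491, AGO1 chr1:36335409-36396133 and AGO3 chr1:36396319-36538101. The gap from AGO4 to AGO1 is 11917 bases and that from AGO1 to AGO3 is 185. AGO2 is on the minus strand of another chromosome, at chr8:141530255-141645732. A noncoding RNA on the opposite strand shares 396 bases with the exons of AGO1, 2.82% of them. None of the 3 neighbours was called.

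AGO1 measured 141 and 150 normalized counts in Ctr-KD cells (146 ± 6.51, SD, n = 2). In NSD2-KD cells it was at 210, 174 and 176, in the order NSD2-1, NSD2-2, NSD2-3 used throughout (186 ± 20.3, SD, n = 3). Every NSD2-KD library lay above both Ctr-KD libraries, and the NSD2-1 library was the highest. The log2 difference was 0.35 (SE 0.14), with a 95% interval of 0.03 to 0.67, or 1.02- to 1.59-fold. The unadjusted p was 0.035 and the adjusted p was 0.498 (limma), so the rise did not pass the threshold over all genes. Without the NSD2-1 library, the log2 difference was 0.26 with an unadjusted p of 0.0867 (limma). In the exact permutation test, 2 against 3 libraries cannot give a p under 0.1.

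AGO2, the cleaving Argonaute, measured 98.1 and 115 in Ctr-KD cells (107 ± 12.1, SD, n = 2). The siRNAs gave 73.6 (NSD2-1), 165 (NSD2-2) and 118 (NSD2-3), a mean of 119 ± 45.7 (SD, n = 3). The NSD2-1 library was below both Ctr-KD libraries and the NSD2-2 and NSD2-3 libraries were above both. The log2 difference of the group means was 0.08, with a 95% interval of -0.60 to 0.77 and adjusted p = 0.956 (limma). A change of the group mean between 0.66- and 1.70-fold is inside this interval. Without the NSD2-2 library the log2 difference was -0.19, so its direction rests on that library, and without Ctr-KD replicate 1 it was -0.03.

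AGO3 measured 38.1 and 35.0 in Ctr-KD cells (36.5 ± 2.21, SD, n = 2) and 25.8, 32.8 and 43.9 in NSD2-KD cells (34.2 ± 9.16, SD, n = 3). The NSD2-KD libraries lay on both sides of the Ctr-KD libraries, and the log2 difference was -0.13 (95% interval -0.72 to 0.47, adjusted p = 0.919, limma). Without the NSD2-1 library it turned to 0.054, and without the NSD2-3 library it was -0.32. AGO4 measured 63.8 and 60.7 in Ctr-KD cells (62.3 ± 2.21, SD, n = 2) and 51.5, 72.1 and 42.0 in NSD2-KD cells (55.2 ± 15.4, SD, n = 3). Only the NSD2-2 library was above the Ctr-KD libraries, and the log2 difference was -0.21 (95% interval -0.76 to 0.35, adjusted p = 0.848, limma). It was -0.41 without the NSD2-2 library and -0.029 without the NSD2-3 library.

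DICER1 spans chr14:95552565-95624347 on the minus strand and holds the gene of miR-3173 within it. It measured 341 and 374 normalized counts in Ctr-KD cells (358 ± 23.6, SD, n = 2). In NSD2-KD cells it was at 252, 281 and 417 (317 ± 88.0, SD, n = 3), or 70.5%, 78.5% and 117% of the mean in Ctr-KD cells. The NSD2-1 and NSD2-2 libraries were below both Ctr-KD libraries and the NSD2-3 library was above both. The log2 difference was -0.21 (95% interval -0.67 to 0.25, adjusted p = 0.814, limma). Without the NSD2-3 library it was -0.42, with adjusted p = 0.232 (limma), and without the NSD2-1 library it was -0.063.

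TARBP2, which holds Dicer to its substrate and to Argonaute, spans chr12:53894705-53900215 on the plus strand. It measured 64.8 and 55.6 in Ctr-KD cells (60.2 ± 6.52, SD, n = 2) and 74.5, 65.5 and 76.1 in NSD2-KD cells (72.1 ± 5.71, SD, n = 3). The 3 NSD2-KD libraries were above both Ctr-KD libraries, the lowest of them by less than 1 normalized count. NSD2-KD cells differed by 0.26 on the log2 scale (95% interval -0.14 to 0.65, adjusted p = 0.716, limma). A long noncoding RNA on the opposite strand shares 541 bases, 13.2% of the exon bases of TARBP2.

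PRKRA, the other Dicer partner and an activator of the kinase PKR, lies at chr2:179296019-179316239 on the minus strand. It measured 52.4 and 72.0 in Ctr-KD cells (62.2 ± 13.9, SD, n = 2) and 56.1, 49.2 and 58.6 in NSD2-KD cells (54.6 ± 4.89, SD, n = 3). Here the wider spread was in Ctr-KD cells, and the groups overlapped. The groups differed by -0.17 on the log2 scale (95% interval -0.64 to 0.30, adjusted p = 0.852, limma), and without Ctr-KD replicate 2 it was 0.05. Exons of PRKRA overlap those of CHROMR by 1068 bases and those of PJVK by 132 bases, both on the opposite strand. The library kit does not mark strand and the strand setting of the counting is not given in the sources used here, so reads of such partners cannot be told apart.

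The GW182 genes lie on separate chromosomes, TNRC6A at chr16:24621530-24838953, TNRC6B at chr22:40440821-40731812 and TNRC6C at chr17:75954785-76104903, all on the plus strand. TNRC6A measured 414 and 403 in Ctr-KD cells (409 ± 7.86, SD, n = 2) and 467, 339 and 366 in NSD2-KD cells (390 ± 67.3, SD, n = 3). The NSD2-1 library was above both Ctr-KD libraries and the other 2 NSD2-KD libraries were below. Its log2 difference was -0.08 (95% interval -0.41 to 0.25, adjusted p = 0.908, limma), and without NSD2-2 it was 0.02.

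TNRC6B measured 132 and 148 in Ctr-KD cells (140 ± 11.1, SD, n = 2) and 120, 130 and 90.8 in NSD2-KD cells (113 ± 20.3, SD, n = 3). It was the 1 silencing gene with every NSD2-KD library below both Ctr-KD libraries, at 85.3%, 92.7% and 64.7% of the Ctr-KD mean. On the log2 scale the difference was -0.32 (95% interval -0.73 to 0.10, adjusted p = 0.661, limma). Without the NSD2-3 library it was -0.17.

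TNRC6C measured 79.1 and 75.1 in Ctr-KD cells (77.1 ± 2.81, SD, n = 2) and 94.8, 89.6 and 102 in NSD2-KD cells (95.3 ± 5.99, SD, n = 3). All 3 siRNAs gave a value above both Ctr-KD libraries, and their log2 range, 0.18, was the smallest among the 10 genes. Its log2 difference was 0.30 (95% interval -0.05 to 0.65) with an unadjusted p of 0.080 and an adjusted p of 0.606 (limma). Exons of TMC6 on the opposite strand share 1426 bases with TNRC6C, 12.3% of its exon bases, and TMC6 itself was listed at a mean of 1.32 normalized counts. No exon of another gene overlaps those of AGO4, TNRC6A or TNRC6B. The plot of differences by siRNA sets the single libraries beside the limma intervals.

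**Figure D2:**
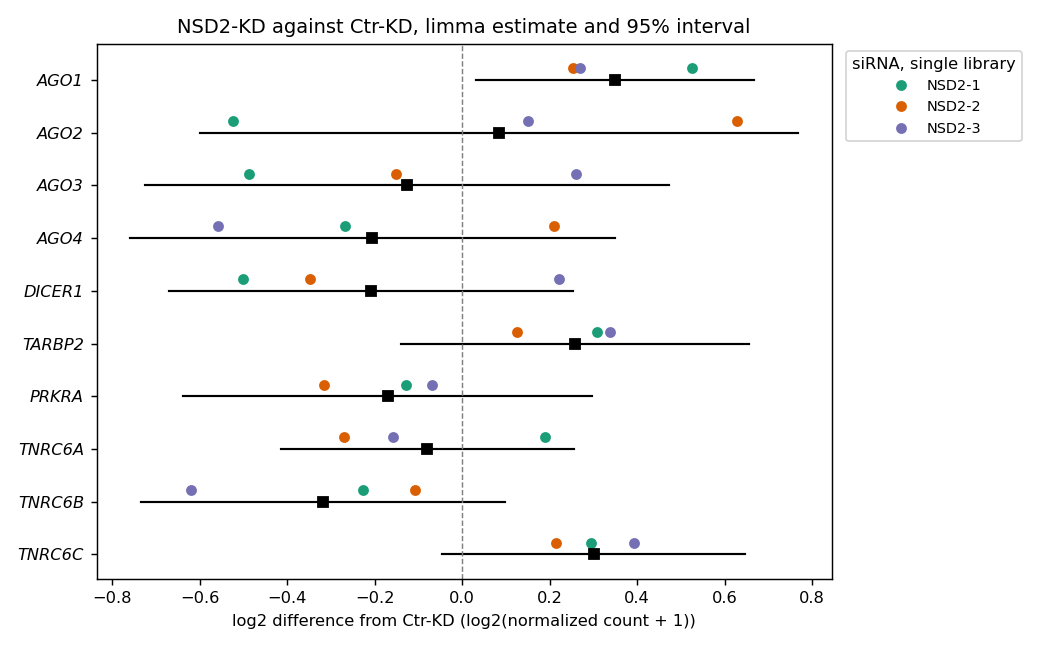
Log2 difference from Ctr-KD cells (horizontal axis, log2 of normalized count + 1) for the 10 silencing genes (vertical axis). Black squares and lines are the limma estimates with 95% intervals, and coloured points are single NSD2-KD libraries minus the Ctr-KD mean. Only the interval of AGO1, 0.03 to 0.67, lies wholly to one side of 0, and its adjusted p is 0.498.

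By the median log2 range, the NSD2-KD libraries differed among themselves more than the Ctr-KD libraries did, for the silencing genes and for genes at large. PRKRA went the other way, with a range of 0.25 in NSD2-KD cells and 0.45 in Ctr-KD cells. So did TARBP2, at 0.213 and 0.218. The range over the 3 NSD2-KD libraries had a median of 0.49 (log2) over the 10 genes and 0.39 over all tested genes. The range over the 2 Ctr-KD libraries had a median of 0.13 over the 10 genes and 0.14 over all tested genes. A range over 3 libraries is wider by construction than a range over 2. AGO2 had the widest range of the 10, 1.15, wider than 95.9% of the 2853 tested genes whose mean lay within 1.5-fold of its own. DICER1 ranged over 0.72, wider than 91.0% of 1541 such genes, and AGO4 over 0.77, wider than 83.1% of 2743. At the other end TNRC6C ranged over 0.18 and TARBP2 over 0.21, wider than 16.6% and 17.6% of genes of like mean.

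AGO2 and DICER1 were singled out after their ranges were seen, and are given with their counting error. AGO2 rested on 80 reads with NSD2-1 (exact 95% Poisson interval 58.4 to 91.6 normalized counts) and on 151 reads with NSD2-2 (140 to 193). DICER1 rested on 274 reads with NSD2-1 (223 to 284) and on 427 with NSD2-3 (378 to 458). In both genes these intervals did not overlap, and the same held for TNRC6A between NSD2-1 (427 to 509) and NSD2-2 (302 to 378). For AGO4, the NSD2-2 interval of 55.8 to 91.7 and the NSD2-3 interval of 30.4 to 56.5 touched. These intervals cover counting error only. Among the 3 NSD2-KD libraries, the lowest value came from NSD2-2 in 5 genes, from NSD2-1 in 3 and from NSD2-3 in 2, and the highest from NSD2-3 in 5, NSD2-2 in 3 and NSD2-1 in 2. No siRNA was lowest or highest for all of the 10 genes.

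Levels of different genes were compared per kilobase of exon, as normalized counts over the joined length of all annotated exons. These lengths are from GENCODE v44lift37, and the annotation over which the reads were counted is not given. Reads and lengths may therefore not cover the same exons, and the order and the family shares depend on that match. TNRC6A had the highest level, with a median of 31.1 over the 5 libraries (26.1 to 36.0), and did not overlap the next. TARBP2 (13.6 to 18.6), DICER1 (median 15.4) and AGO1 (median 12.4) followed, each overlapping its neighbour. AGO4 (8.18), TNRC6C (7.70), AGO2 (7.27), TNRC6B (6.50) and PRKRA (4.65) formed a run of overlapping neighbours. AGO4 did not overlap AGO1, but AGO2 reached into the AGO1 range with NSD2-2, at 10.4. AGO3 was lowest, at 1.65 (1.22 to 2.08), clear of PRKRA. The choice of length matters most for PRKRA, whose joined exons cover 12061 bases and whose canonical transcript has 1770. Over canonical transcripts the order was TNRC6A (47.5), TARBP2 (43.4), DICER1 (32.8) and PRKRA (31.7), then AGO1 (12.7), then TNRC6C (8.62), AGO4 (8.35), AGO2 (7.89) and TNRC6B (7.11), then AGO3 (1.78). Within each of these groups neighbours overlapped, and neighbours on either side of a group's edge did not, although AGO2 with NSD2-2, at 11.3, again lay in the AGO1 range.

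**Figure D3:**
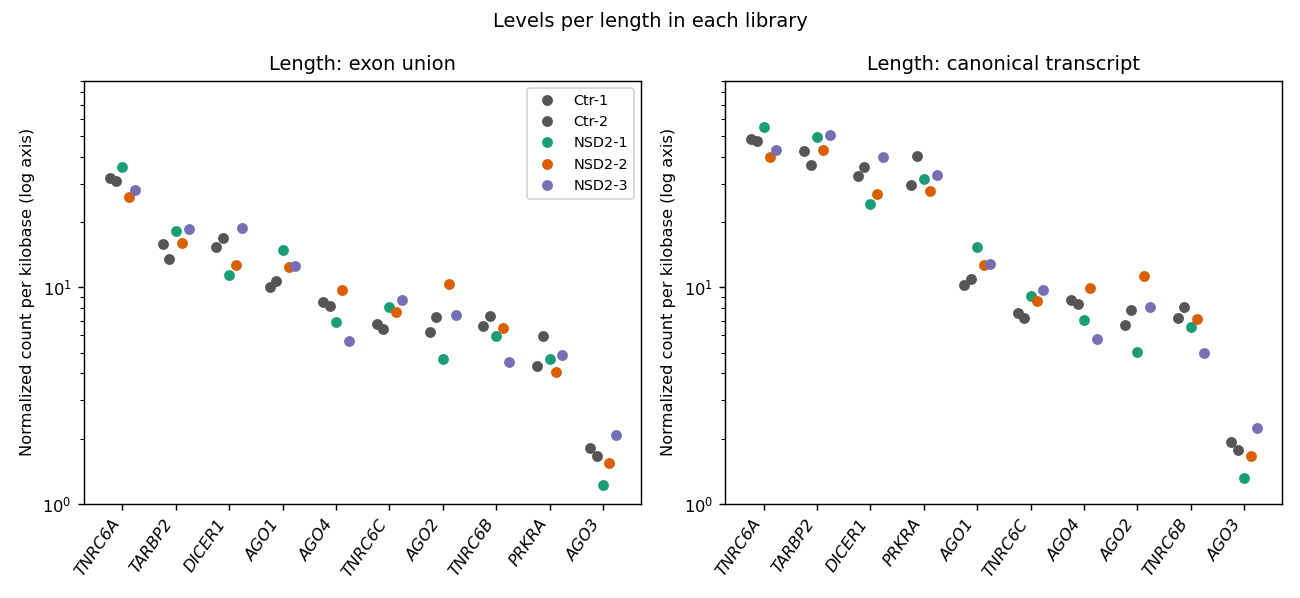
Normalized count per kilobase (vertical axes, log scale) of the 10 silencing genes, ordered by median, over the joined exons (left) and over the canonical transcript (right). Each point is 1 library. TNRC6A is highest and AGO3 lowest with either length, and PRKRA moves from a median of 4.65 to 31.7.

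Within the Argonaute family, AGO1 made up 37.7% and 38.5% of the summed level per kilobase of joined exons in Ctr-KD cells. With NSD2-1, NSD2-2 and NSD2-3 it made up 53.8%, 36.3% and 45.2%. The NSD2-2 library was therefore below both Ctr-KD libraries in share although its AGO1 level was above both, and its AGO2 share, 30.6%, was the highest of all libraries. The share of AGO2 was 23.2% and 26.2% in Ctr-KD cells, 16.7% with NSD2-1 and 26.9% with NSD2-3. AGO3 held between 4.39% and 7.50% in every library. The summed Argonaute level per kilobase was 26.6 and 27.8 in Ctr-KD cells and 27.7, 34.0 and 27.7 in NSD2-KD cells. Of the GW182 genes, TNRC6A made up 64.8% to 71.8% of its family per kilobase in every library. TNRC6C held 15.0% and 14.4% in Ctr-KD cells and 16.3%, 19.1% and 21.0% in NSD2-KD cells, with no overlap of the groups, and no test was made of these shares.

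AGO1 had the largest limma statistic of the 10 genes. Of 7577 other tested genes whose normalized count averaged 50 or more, those closest to it over the 5 libraries were TEAD2, BZW2 and MEF2D. Their log2 values, centred on their own mean, differed from those of AGO1 by a root mean square of 0.031, 0.036 and 0.037. TEAD2, a transcription factor of the Hippo pathway, measured 84.8 and 86.4 in Ctr-KD cells and 125, 107 and 104 in NSD2-KD cells. None of the 3 was called, with adjusted p from 0.484 to 0.640 in limma. This is a likeness over 5 libraries of 2 groups and carries no test.

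The other steps of the pathway were read from lists of genes by role. The list of nuclear processing and export, which makes precursors and carries them to the cytoplasm, had 13 of 13 genes tested and 0 called. Its groups did not overlap for 2 genes, both lower, where 13.9% of all tested genes were lower without overlap. Of its log2 differences 2 were above 0 and 11 below, with a median of -0.13 beside -0.0089 for all tested genes. RAN, the GTPase that drives nuclear transport, measured 746 and 741 in Ctr-KD cells and 732, 489 and 670 in NSD2-KD cells (log2 difference -0.26, adjusted p = 0.696, limma), and without the NSD2-2 library the difference was -0.086. SRSF3, a splicing factor that also helps recognition of miRNA precursors, measured 530 and 500, and then 471, 464 and 462 (log2 difference -0.14, adjusted p = 0.716, limma). The enzyme DROSHA, its partner DGCR8 and the exporter XPO5, named for their role and outside the rule for named genes, had log2 differences of -0.13, -0.10 and -0.05, none called.

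The list of chaperones and loading of Argonaute held 12 genes, with 12 tested and 0 called. Of its log2 differences 5 were above 0 and 7 below, with a median of -0.06. At an unadjusted p under 0.05 there was 1, lower, where 4.99% of tested genes were lower. It was HSP90AA1, an HSP90 gene, with 2550 and 2551 normalized counts in Ctr-KD cells and 2193, 2085 and 2375 in NSD2-KD cells (log2 difference -0.20, unadjusted p = 0.0466, adjusted p = 0.531, limma). PTGES3, the co-chaperone p23, measured 488 and 454, and then 402, 411 and 419 (log2 difference -0.20, adjusted p = 0.610, limma). Groups did not overlap for 3 of the 12 genes, all lower, where 13.9% of all tested genes were. The third was HSPA8, the constitutive HSP70, named after its values were seen, with 3170 and 3223 in Ctr-KD cells and 3044, 2775 and 2756 in NSD2-KD cells (log2 difference -0.16, adjusted p = 0.612, limma). For HSP90AB1, the other HSP90 gene of the list and also named after its values were seen, the groups overlapped. It measured 2681 and 2737 in Ctr-KD cells and 3033, 2658 and 2725 in NSD2-KD cells (log2 difference 0.05, adjusted p = 0.908, limma). The sum over the list was 11580 and 11758 in Ctr-KD cells and 11467, 10540 and 11086 in NSD2-KD cells.

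The 15 other proteins of the silencing complex were all tested and 0 were called, with a median log2 difference of -0.07. Groups did not overlap for 2 higher and 2 lower genes, near the shares of all tested genes, 13.8% higher and 13.9% lower. The higher ones were WTIP, an adaptor of the LIM domain family, at 0.39, and FXR2, an RNA-binding relative of FMR1, at 0.28. FXR2 measured 187 and 173 in Ctr-KD cells and 202, 240 and 213 in NSD2-KD cells (adjusted p = 0.577, limma). The lower ones were GEMIN4, at -0.24, and TSN, a subunit of the C3PO nuclease that clears the passenger strand of a loaded siRNA, at -0.87 (adjusted p = 0.659, limma).

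TSN measured 174 and 220 in Ctr-KD cells, and 173, 45.9 and 153 in NSD2-KD cells. Its low value came from the NSD2-2 library alone, and without that library the log2 difference was -0.27. IPO8, CNOT6 and FMR1 were chosen after their values were seen, since they too were low with some siRNAs and not others. No cut-off was set for this choice, and the share of all tested genes like them was not computed. FKBP5, of the chaperone list, was uneven too, with a log2 range of 1.24 between the NSD2 siRNAs. IPO8, an importin that also carries Argonaute, measured 180 and 147 in Ctr-KD cells and 52.4, 157 and 142 in NSD2-KD cells, low with NSD2-1 only. CNOT6, a catalytic subunit of the CCR4-NOT deadenylase, measured 107 and 117, and then 120, 41.5 and 31.2, low with NSD2-2 and NSD2-3. FMR1, an RNA-binding protein of the complex, measured 80.0 and 77.2, and then 66.3, 80.8 and 29.3, low with NSD2-3 only. None of TSN, IPO8, CNOT6 and FMR1 was called, and the lowest adjusted p among these was 0.568 (CNOT6, limma).

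**Figure D4:**
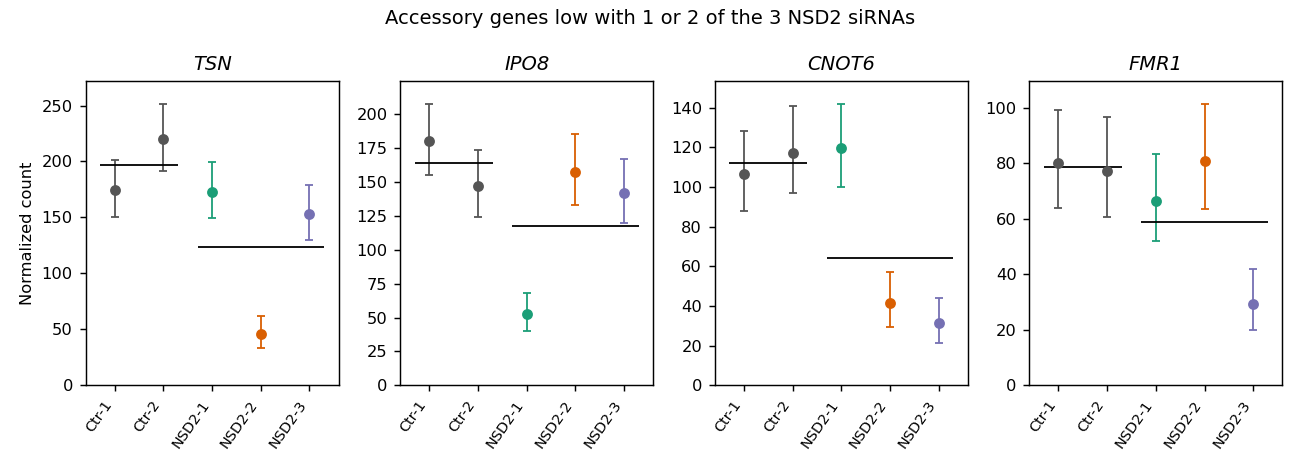
Normalized counts (vertical axes, from 0) of TSN, IPO8, CNOT6 and FMR1 in the 5 libraries (horizontal axes), with exact 95% Poisson counting intervals and group means as horizontal lines. Each gene is low in 1 or 2 of the NSD2-KD libraries, for example TSN at 45.9 with NSD2-2, and within the Ctr-KD range or close to it in the rest.

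The 25 deadenylation and decay effectors, to which GW182 proteins hand over the mRNA, were all tested and 0 were called. Their log2 differences were above 0 for 13 and below 0 for 12, with a median of 0.00065. Groups did not overlap for 3 higher and 2 lower genes of the 25, no more than the 13.8% and 13.9% of all tested genes. EIF4ENIF1, which represses translation from the mRNA cap, measured 60.0 and 46.3 in Ctr-KD cells and 64.4, 79.7 and 75.2 in NSD2-KD cells (log2 difference 0.46, unadjusted p = 0.0444, adjusted p = 0.525, limma). DCP1B, a decapping activator, measured 24.8 and 28.8, and then 37.7, 37.1 and 35.1 (log2 difference 0.44, adjusted p = 0.583, limma). The lower genes were PAN3, a deadenylase subunit that GW182 proteins bind, at -0.23 (adjusted p = 0.716, limma), and DDX6, a helicase of the decay machinery, at -0.23 (adjusted p = 0.696, limma) and at -0.098 without the NSD2-3 library.

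Of the 12 genes for turnover of Argonaute and tailing of miRNAs, 9 were tested and 0 called, with a median log2 difference of -0.0022. USB1, an exonuclease that trims RNA tails, was the 1 gene of the 9 without overlap, where 27.7% of all tested genes had none, with 144 and 149 in Ctr-KD cells and 169, 209 and 156 in NSD2-KD cells (log2 difference 0.27, adjusted p = 0.663, limma). LIN28A had 1 read in 1 library, and LIN28B and TRIM71 had none. The PIWI proteins are the germ line branch of the Argonaute family. None of the 9 listed genes of their pathway, the PIWIL genes and their partners, passed the filter. Of these 3 had a read, and the highest value of any was 6.67 normalized counts, for the RNA methyltransferase HENMT1 in a Ctr-KD library. The plot of the lists by role gives every tested gene.

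**Figure D5:**
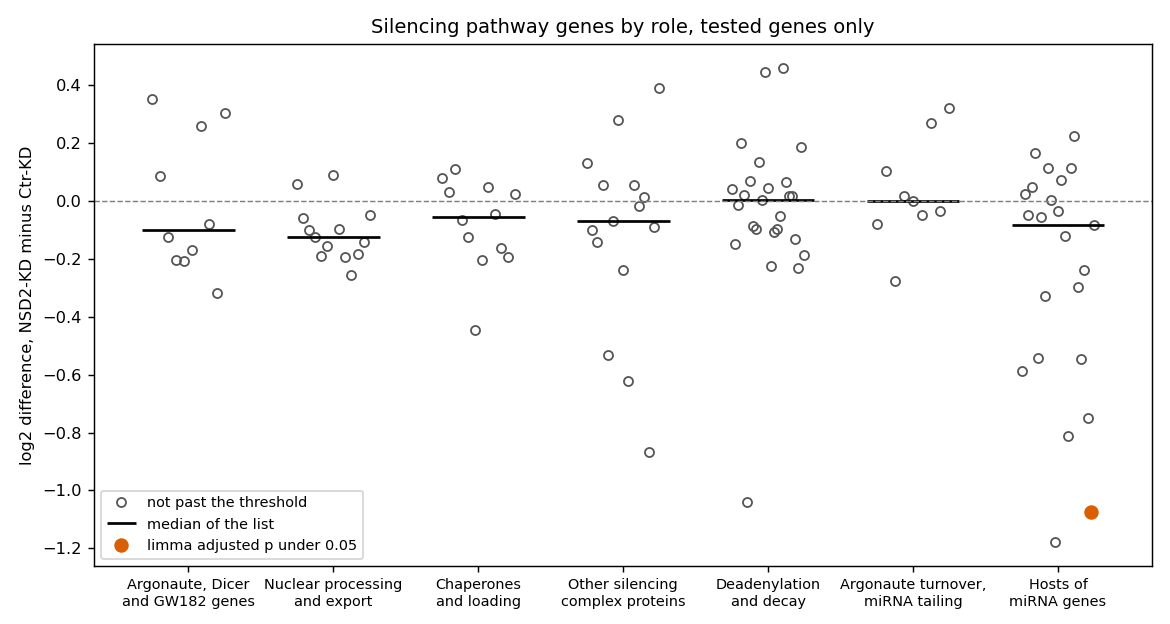
Log2 difference, NSD2-KD minus Ctr-KD (vertical axis), of each tested gene of 7 lists (horizontal axis), with the median of each list as a black line. Open circles did not pass an adjusted p of 0.05 in limma and the filled circle did. The 1 called gene is SMC4, a miRNA host at -1.07, and the medians of the lists lie between -0.13 and 0.00065.

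The last list held 28 host transcripts of miRNA genes, the source of the RNA that DICER1 and the Argonautes handle. Poly(A) mRNA-seq measures the host mRNA and not the mature miRNA. Of the 23 tested, limma called 1, lower, edgeR 1 and DESeq2 2. Over all genes these tools called 0.0884%, 0.141% and 0.557%, in the same order. At an unadjusted p under 0.05, 7 were lower (4.99% of all tested genes) and 0 higher (4.19%). Groups did not overlap for 9 lower and 3 higher genes, where the shares of all tested genes were 13.9% and 13.8%, and the median log2 difference was -0.08. The 2 hosts that passed the adjusted threshold in at least 1 of limma, edgeR and DESeq2 were SMC4 and MCM7, genes of the chromosome and replication machinery. For each miRNA gene in them, the arm usually named as the main product is shown, and the other arm is left out, with the seed, bases 2 to 8 from the 5′ end, in capitals (RefSeq, GRCh38.p14).
hsa-miR-15b-5p, in SMC4, chr3:160404607-160404628, plus strand: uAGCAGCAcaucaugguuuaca
hsa-miR-16-5p, in SMC4, chr3:160404754-160404775, plus strand: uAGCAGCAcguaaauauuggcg
hsa-miR-106b-5p, in MCM7, chr7:100094043-100094063, minus strand: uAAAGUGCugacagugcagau
hsa-miR-93-5p, in MCM7, chr7:100093815-100093837, minus strand: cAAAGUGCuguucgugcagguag
hsa-miR-25-3p, in MCM7, chr7:100093571-100093592, minus strand: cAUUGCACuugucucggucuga

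SMC4, a condensin subunit, measured 497 and 536 in Ctr-KD cells (517 ± 27.4, SD, n = 2) and 274, 221 and 242 in NSD2-KD cells (246 ± 27.0, SD, n = 3). Every NSD2-KD library was below both Ctr-KD libraries, and the log2 difference was -1.07 (adjusted p = 0.0322, limma). The call was lost with all libraries kept when limma was run without the trend (-1.07, adjusted p = 0.209). It was also lost without the NSD2-2 library (-1.0, adjusted p = 0.0554, limma). Without Ctr-KD replicate 1 (-1.13) or Ctr-KD replicate 2 (-1.02) it was lost too. The fall was of about the same size each time. The miRNAs printed for SMC4, miR-15b-5p and miR-16-5p, share the seed AGCAGCA. The same seed, and miR-16-5p itself, is also encoded in DLEU2, which measured 13.3 and 10.3 in Ctr-KD cells and 9.20, 13.1 and 11.7 in NSD2-KD cells (log2 difference -0.06, adjusted p = 0.973, limma).

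MCM7, a subunit of the replicative helicase, measured 435 and 422 in Ctr-KD cells (429 ± 9.59, SD, n = 2) and 184, 144 and 254 in NSD2-KD cells (194 ± 55.5, SD, n = 3). Its log2 difference of -1.18 did not pass the threshold in limma (adjusted p = 0.164) or edgeR (adjusted p = 0.123) and did in DESeq2 (adjusted p = 0.00138). Without the NSD2-3 library it passed in limma, at -1.39 with adjusted p = 0.0208. With the replicate number as a block the adjusted p was 0.00446 (limma). That fit leaves NSD2-3 in a block of its own, so its estimate is the same -1.39 and not a separate check. Of the miRNAs printed for it, miR-106b-5p and miR-93-5p share the seed AAAGUGC and miR-25-3p has the seed AUUGCAC. MIR17HG, whose miR-17-5p and miR-20a-5p have the first of these seeds and whose miR-92a-3p has the second, was under the filter, at 5.72 and 4.12 in Ctr-KD cells and 1.84, 5.46 and 2.93 in NSD2-KD cells. The rule also names 2 hosts whose NSD2-KD libraries were all above both Ctr-KD libraries, without a call. PANK1, host of miR-107, had a log2 difference of 0.22 (adjusted p = 0.853, limma) and CTDSP2, host of a miR-26a gene, of 0.16 (adjusted p = 0.672, limma).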

How the data were processed

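mRNA-seq was made from poly(A) RNA of 2 Ctr-KD and 3 NSD2-KD libraries of IMR-90 cells. The authors used HISAT2 for mapping (hg19), SAMtools to keep reads with a unique position and featureCounts for counting. Which annotation and strand setting went into the counting is not given in the sources used here. The signal that the authors deposited is the count per gene divided by a DESeq2 size factor of the library, which hides a change shared by all genes. A second deposited table holds the authors' own DESeq2 fold changes and p-values and was not used.

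Whole reads were recovered for 100% of values (tolerance 0.01). The main test was limma 3.58.1 with trended variances, fitted to log2(normalized count + 1) without covariates, two-sided, for genes with a mean of at least 10, with Benjamini-Hochberg adjustment over all 11313. A difference on this scale understates changes of low genes. edgeR 4.0.16 and DESeq2 1.42.0 on recovered reads were alternatives, with others of pseudocount, filter, trend, quantile scaling, replicate block and libraries left out. The fits were tested on simulated data in R 4.3.3. The p-values measure the spread between these libraries, which for NSD2-KD cells includes that between siRNAs. Of the names listed, 2 occur more than once.

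The silencing genes and the lists by role were chosen with earlier results of these data known, so no list was tested. Named genes are the 10 silencing genes, NSD2, and, from each list, called genes and up to 4 others, the 2 largest rises and the 2 largest falls among genes whose groups did not overlap. For likeness, they are the 3 genes closest to the silencing gene with the largest limma statistic. Lengths and positions came from GENCODE v44lift37 on GRCh37, the assembly of hg19, and miRNAs from RefSeq on GRCh38.p14. Counting intervals are exact Poisson intervals, and reads are not corrected for duplicates.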

Additional observations from a re-analysis of the deposited data

How the results depend on the processing

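None of the 10 silencing genes was called under any of the 14 alternatives, and the lowest adjusted p of any of them was 0.220 (limma, DICER1 with the replicate block). AGO1 kept a log2 difference of 0.26 to 0.40 over all settings, with unadjusted p from 0.0243 to 0.178. The directions that turned did so when a library was left out. The leave-one-out ranges were -0.19 to 0.39 for AGO2 (-0.03 without Ctr-KD replicate 1, -0.19 without NSD2-KD replicate 2), -0.32 to 0.054 for AGO3 (0.054 without NSD2-KD replicate 1), -0.40 to 0.055 for PRKRA (0.055 without Ctr-KD replicate 2) and -0.21 to 0.016 for TNRC6A (0.016 without NSD2-KD replicate 2). AGO3 was not tested with a minimum of 50. The median of the 10 differences lay between -0.11 and -0.0043 with a library left out.

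Over all genes, limma called 10, and it called 1 without the trend, 0 to 30 with a library left out (0 without either Ctr-KD replicate, and 16, 4 and 30 without NSD2-KD replicate 1, 2 and 3), while edgeR called 16 and DESeq2 56. With 1 Ctr-KD library left, that library was assumed to vary like the NSD2-KD libraries. The replicate numbers of NSD2-KD cells are those of the siRNAs, and same-numbered libraries did not deviate together (correlations of deviations -0.015 and -0.027). With the replicate number as a block, 102 genes were called, and the median of the 10 silencing genes was -0.035. That fit leaves NSD2-3 in a block of its own. Depth limits the precision of AGO3, which had 28 to 45 reads a library.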

Other observations

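Besides SMC4 and MCM7, 5 hosts of miRNA genes were lower at an unadjusted p under 0.05 in limma without passing the adjusted threshold, and they were named after their values were seen. SKA2, a spindle and kinetochore protein gene that hosts miR-301a and miR-454, measured 190 and 157 normalized counts in Ctr-KD cells and 93.9, 96.1 and 119 in NSD2-KD cells (log2 difference -0.75, adjusted p = 0.227, limma). MIR503HG, host of miR-503, measured 19.1 and 21.6, and then 12.0, 9.83 and 11.7 (log2 difference -0.81, adjusted p = 0.406, limma). PANK3, host of a miR-103a gene, had a log2 difference of -0.55 (adjusted p = 0.269, limma), CTDSPL, host of a miR-26a gene, of -0.54 (adjusted p = 0.405, limma), and AOPEP, host of miR-23b, miR-27b and a miR-24 gene, of -0.59 (adjusted p = 0.504, limma). In all 5, every NSD2-KD library lay below both Ctr-KD libraries, as in 13.9% of all tested genes. Genes picked by a low p tend to show this, so it adds no support.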
